A study of Mus musculus with 14 samples.

Results

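The VE-PTPiKO genotype was compared with Control in kidneys that had sham surgery and no ischemia. All bulk libraries labelled sham were used, 3 Control and 3 VE-PTPiKO, which are 6 of the 14 samples of the series. The study concerns angiopoietin-Tie2 signalling in ischemia-reperfusion (IR) injury of the mouse kidney, and this comparison addresses the genotype without the injury. Each library holds total RNA of 1 whole kidney sample from 9-week-old mice, taken 5 h after surgery. Control sham and VE-PTPiKO sham differ in the labels by genotype alone. VE-PTPiKO is the submitters' name for mice in which VE-PTP, encoded by Ptprb, is targeted. The alleles, the promoter of any Cre, the inducing agent, the strain and the sex of these mice are not given in the sources used here, nor is the genotype of the Controls beyond that name. The 3 Control IR and 3 VE-PTPiKO IR libraries, from mice of the same age and time that had IR surgery, served for the estimate of spread and as a second set of samples for the same genotypes.

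VE-PTP (vascular endothelial protein tyrosine phosphatase) is a membrane enzyme of endothelial cells that removes phosphate from the receptor tyrosine kinase Tie2, encoded by Tek, and it also associates with VE-cadherin, encoded by Cdh5. Angiopoietin 1 activates Tie2, whereas angiopoietin 2 acts as a weak or context-dependent ligand, and active Tie2 signals through AKT, which keeps FOXO transcription factors out of the nucleus. In the kidney this pathway is known for its role in the glomerular and peritubular capillaries and in the vasa recta.

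The libraries held 16208769 to 21296392 reads assigned to genes. Markers of proximal tubule (Lrp2, Slc34a1), thick ascending limb (Umod, Slc12a1), distal convoluted tubule (Slc12a3), collecting duct (Aqp2) and endothelium (Pecam1) were expressed in all 6 libraries, from 85.7 CPM (the reads of a gene scaled to the same total in every library) for the lowest value of Pecam1 to 9020 CPM for the highest of Lrp2. Replicate 2 of each genotype stood apart from the other libraries: the nuclear-retained RNA Malat1 took 1.02% and 1.152% of their reads, against 0.327% to 0.564% in the other 4. On the first principal component within groups these 2 libraries lay at 41.1 and 35.1, and the other 4 between −36.4 and 1.3. Without both, limma called 0 genes, and the log2 differences were −0.33 for Ptprb, 1.59 for Fgg and −1.18 for Nmrk1, the genes described first below. The labels do not say that the libraries come from separate mice, so p-values measure the spread between these samples, which may be technical in part.

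No gene passed the test between the genotypes in sham kidneys. Of 16278 genes tested, limma called 0 at an adjusted p under 0.05 (0.0%), and 272 (1.67%) had an unadjusted p under 0.05, 165 higher (1.01%) and 107 lower (0.657%) in VE-PTPiKO. The count at the unadjusted threshold was 616 without Control sham replicate 2 and 458 without VE-PTPiKO sham replicate 1. The quasi-likelihood test of edgeR on recovered reads called 0 genes, with 254 (1.56%) at an unadjusted p under 0.05. DESeq2 called 1 of 16272 (0.00615%), the fibrinogen gene Fgg, with 216 genes (1.33%) at an unadjusted p under 0.05. Limma called 1 gene, the nicotinamide riboside kinase gene Nmrk1, without VE-PTPiKO sham replicate 3. The values of the 3 Control and the 3 VE-PTPiKO libraries did not overlap for 797 genes (4.9%), 406 higher (2.49%) and 391 lower (2.4%). Groups of 3 against 3 without overlap have a two-sided exact permutation p of 0.1, so a lack of overlap alone does not mark a difference.

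The measurement limited how small a difference could be seen. For the 10547 genes that averaged 5 CPM or more in sham kidneys the 95% interval of the log2 difference reached a median of 0.35 to either side, and for 97.0% of them the whole interval lay within 2-fold of no difference. Within 1.5-fold of no difference lay the whole interval of 74.4% of these genes. In the same set 13 genes differed by more than 2-fold and 53 by more than 1.5-fold in their fitted value. Over all genes tested, where many are low, 73.3% of intervals lay within 2-fold. The median size of the log2 difference was 0.13 in sham and 0.14 in the IR libraries.

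**Figure D1:**
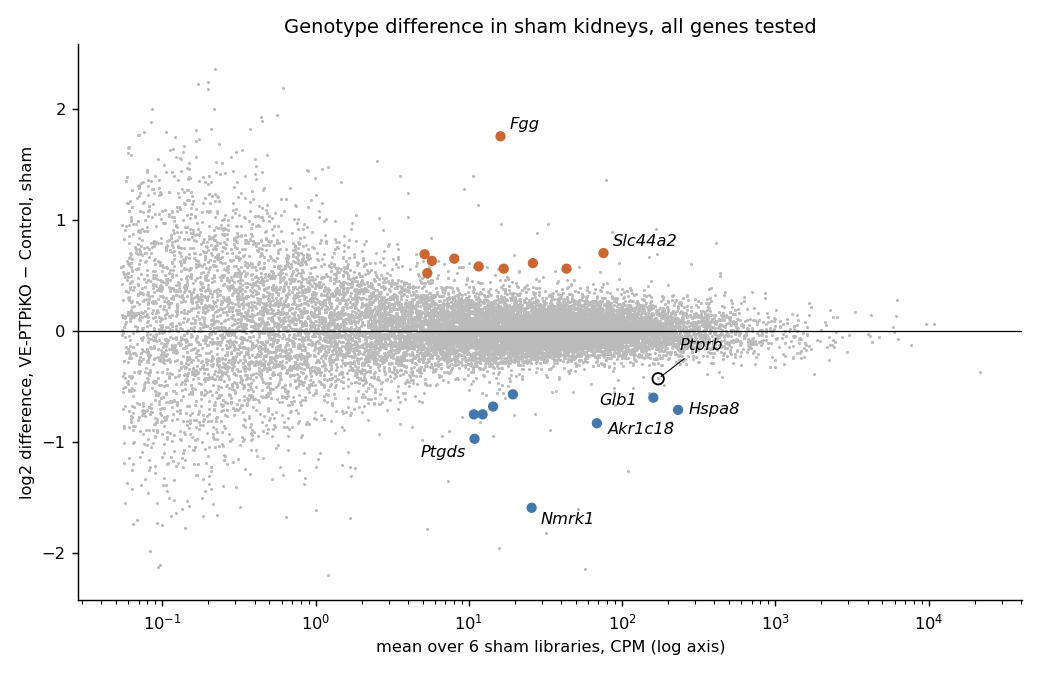
Genotype difference of all 16278 genes tested in sham kidneys, against the mean CPM of the 6 sham libraries on a log axis; the vertical axis is the fitted log2 difference of VE-PTPiKO from Control, orange and blue points are the 10 higher and 9 lower genes of largest value named in the text, and the open circle is Ptprb. None of these genes passed the limma test, and the cloud narrows as the mean level rises. Among the coloured points Fgg at 1.75 and Nmrk1 at −1.59 lie furthest from 0. Some genes that are not coloured lie lower than Nmrk1, such as Rps2 at −2.14, which varied widely within groups.

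Ptprb, the targeted gene (mm10, chromosome 10, 116301374 to 116389538), was lower in each VE-PTPiKO sham library than in every Control sham library but was still expressed. It stood at 168, 245.67 and 177.32 CPM in Control and at 117.34, 162.37 and 161.91 CPM in VE-PTPiKO. The fitted log2 difference was −0.43 ± 0.20 (SE; 95% interval −0.86 to 0.01; n = 3 per group), or 1.34-fold lower, and did not pass the limma test (unadjusted p = 0.053, adjusted p = 1). The difference was −0.27 without Control sham replicate 2 and −0.26 without VE-PTPiKO sham replicate 1. Counts over the whole gene do not show whether some exons were lost. In whole kidney, a loss in all endothelial cells at part of the transcript, a loss in some of the cells and fewer endothelial cells cannot be told apart from this value, and the same holds of fewer cells and less RNA per cell for every gene below.

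Ptprb was therefore set against the endothelial RNA of its own library. As a share of the summed CPM of 25 pan-endothelial marker genes, which do not include Ptprb, it was 14.3%, 20.3% and 15.9% in Control sham and 9.35%, 12.4% and 12.9% in VE-PTPiKO sham. The means were 16.8 ± 3.08% and 11.5 ± 1.9% (SD, n = 3), a 1.46-fold difference with no overlap (two-sided exact permutation p = 0.1, the smallest that the 20 relabellings of 3 against 3 allow). After IR surgery the share was 10.9%, 10.7% and 12.0% in Control and 6.21%, 7.33% and 8.95% in VE-PTPiKO, 1.51-fold lower and again without overlap. Permuting genotypes within sham and within IR together gave an exact p of 0.005, the smallest that the 400 relabellings allow, for a 1.48-fold lower share (n = 6 per genotype). The same test on the CPM of Ptprb alone gave an exact p of 0.035. The summed markers themselves were 1172, 1211 and 1114 CPM in Control sham and 1256, 1314 and 1259 CPM in VE-PTPiKO sham, 1.09-fold higher with no overlap (exact permutation p = 0.1, the smallest allowed), 1.13-fold higher after IR (exact p = 0.3) and 1.11-fold higher in both together (exact p = 0.04). The share therefore combines a lower Ptprb with a higher sum of markers. This share and its tests were chosen after the values were seen. Adjusted over the 9 permutation tests computed, the p-values were 0.129 for the share in sham, 0.045 for the share in sham and IR together and 0.12 for both the CPM of Ptprb and the summed markers in sham and IR together.

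For the receptors and their ligands the fitted differences were small and none passed the test. Tek, the Tie2 receptor, stood at 59.91, 62.03 and 59.95 CPM in Control and 64.24, 68.95 and 63.53 CPM in VE-PTPiKO, a log2 difference of 0.10 (95% interval −0.24 to 0.44). The VE-PTPiKO libraries were all higher than the Control libraries for Tek, by a margin smaller than the spread the fit assigns to a gene of this level. The orphan receptor Tie1, which pairs with Tie2, stood at 56.39, 52.44 and 48.63 CPM against 52.87, 59.37 and 58.09 CPM (0.10, interval −0.14 to 0.35). Angpt1, the activating ligand, stood at 15.61, 15.89 and 17.85 CPM against 21.04, 18.63 and 15.99 CPM (0.16, interval −0.16 to 0.47). Angpt2, the context-dependent ligand that activated endothelium releases, stood at 22.52, 20.02 and 20.91 CPM against 23.06, 22.65 and 17.2 CPM (−0.03, interval −0.30 to 0.23; 0.02 without Control sham replicate 1 and 0.07 without VE-PTPiKO sham replicate 3). Both ligands overlapped between the groups, and their intervals lay within 1.5-fold of no difference. Angpt4, a further ligand, was below 1.2 CPM in every sham library and its interval ran from −1.17 to 0.57.

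Other known partners of VE-PTP and Tie2 gave small differences as well. Cdh5 stood at 56.33, 63.46 and 52.5 CPM in Control and 62.36, 68.9 and 72.65 CPM in VE-PTPiKO (0.23, interval −0.05 to 0.52, unadjusted p = 0.0995). Kdr, the main VEGF receptor of endothelium and another substrate linked to VE-PTP, stood at 113.21, 129.23 and 86.35 CPM against 104.81, 160.34 and 117.66 CPM (0.20, interval −0.18 to 0.59). The difference of Kdr was 0.05 without Control sham replicate 3 or VE-PTPiKO sham replicate 2, 0.35 without VE-PTPiKO sham replicate 1 and 0.32 without Control sham replicate 2, and that of Cdh5 was 0.15 without VE-PTPiKO sham replicate 3. The groups overlapped for both. Svep1, an extracellular ligand of Tie1, was highest in replicate 2 of each genotype (82.45 and 67.03 CPM, against 25.41 to 44.68 CPM in the others), the libraries rich in Malat1. Among the 15 genes listed as partners of the pathway, 0 passed the test, 10 were higher and 5 lower, with a median log2 difference of 0.10 against 0.01 over all genes tested. For 13 of these 15 the interval lay within 2-fold; the exceptions were Angpt4 and Svep1.

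**Figure D2:**
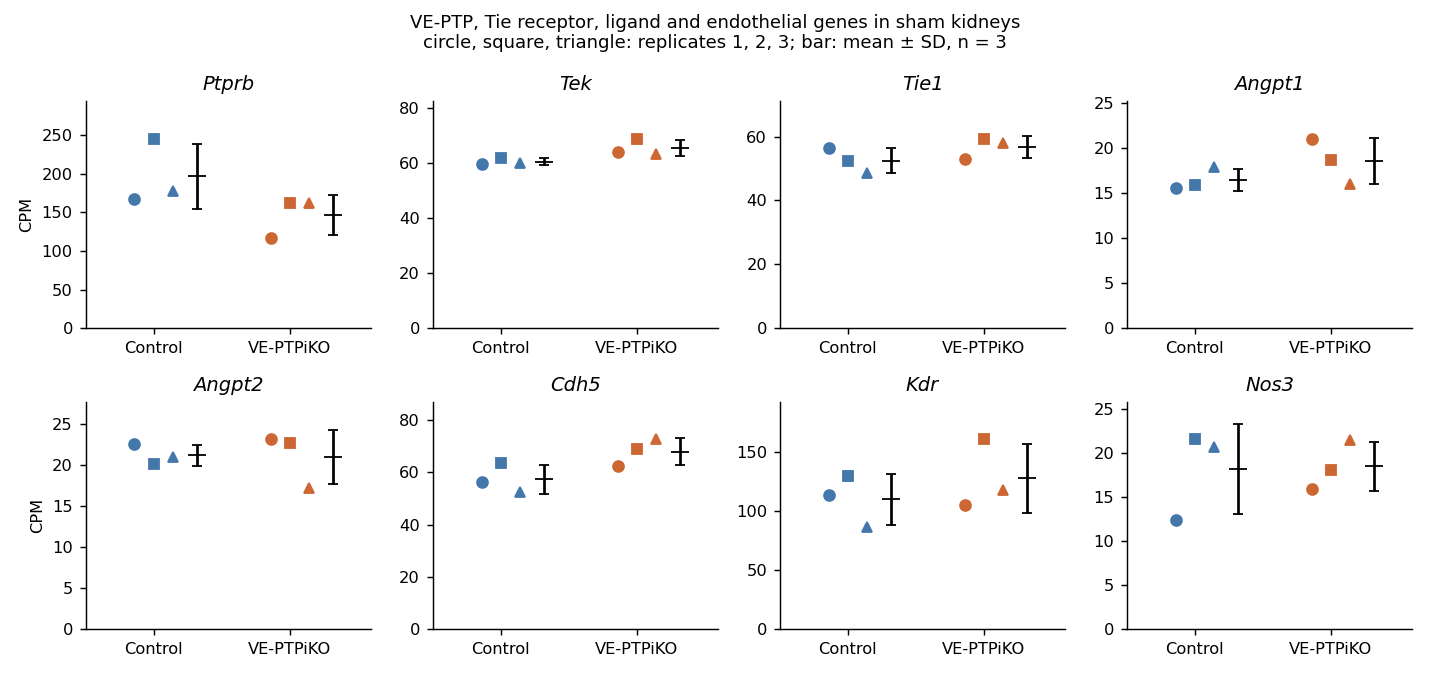
CPM of Ptprb, the Tie receptors, the angiopoietins and 3 endothelial genes in the 6 sham libraries; circles, squares and triangles are replicates 1, 2 and 3, black bars are the mean ± SD of 3, and every axis starts at 0. Ptprb is lower in each VE-PTPiKO library than in every Control library, from 117.34 to 162.37 CPM against 168 to 245.67 CPM, and Tie1, Angpt1, Angpt2, Cdh5, Kdr and Nos3 overlap between the genotypes.

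No endothelial marker passed the test, and most intervals lay within 2-fold of no difference. Of 25 pan-endothelial markers 0 passed, 18 were higher and 7 lower, the median log2 difference was 0.10, and the interval of each of the 25 lay within 2-fold. Flt1, a VEGF receptor that also acts as a decoy, stood at 107.23, 138.14 and 106.85 CPM in Control and 116.45, 152.09 and 144.32 CPM in VE-PTPiKO (0.22, interval −0.12 to 0.56; 0.35 without VE-PTPiKO sham replicate 1). Nos3, the endothelial nitric oxide synthase, had a difference of 0.04 (interval −0.55 to 0.63), with its sign turned by leaving out Control sham replicate 1 (−0.21) or VE-PTPiKO sham replicate 3 (−0.10), and 25.2% of its length overlaps another gene. Of 15 arterial, venous and segment markers 0 passed, and Sox17, a factor of arterial endothelium, had the smallest p (10.98, 11.27 and 8.49 CPM against 13.15, 13.71 and 11.27 CPM, unadjusted p = 0.128; log2 difference 0.30, and 0.19 without Control sham replicate 3). Of 7 lymphatic endothelial markers tested 0 passed, and the interval lay within 2-fold for 4 of them. Flt4, the VEGF-C receptor, was between 16.11 and 23.91 CPM in all 6 libraries (0.24, interval −0.26 to 0.74; 0.14 without VE-PTPiKO sham replicate 3 and 0.37 without Control sham replicate 2). Reln (reelin), a secreted glycoprotein, stood at 12.83, 33.5 and 15.94 CPM in Control and 6.86, 13.97 and 20.61 CPM in VE-PTPiKO, with overlap (−0.61, interval −1.47 to 0.26). Its difference was −0.21 without Control sham replicate 2, −0.16 without VE-PTPiKO sham replicate 1 and −1.0 without VE-PTPiKO sham replicate 3. Lyve1, the hyaluronan receptor of lymphatic endothelium, was at or below 1.38 CPM (−0.78, interval −1.65 to 0.08). Of 21 VEGF, apelin and Notch genes 18 were higher and 3 lower with a median of 0.11, 0 passed and 19 intervals lay within 2-fold; Vegfa, the main ligand, differed by 0.01.

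**Figure D3:**
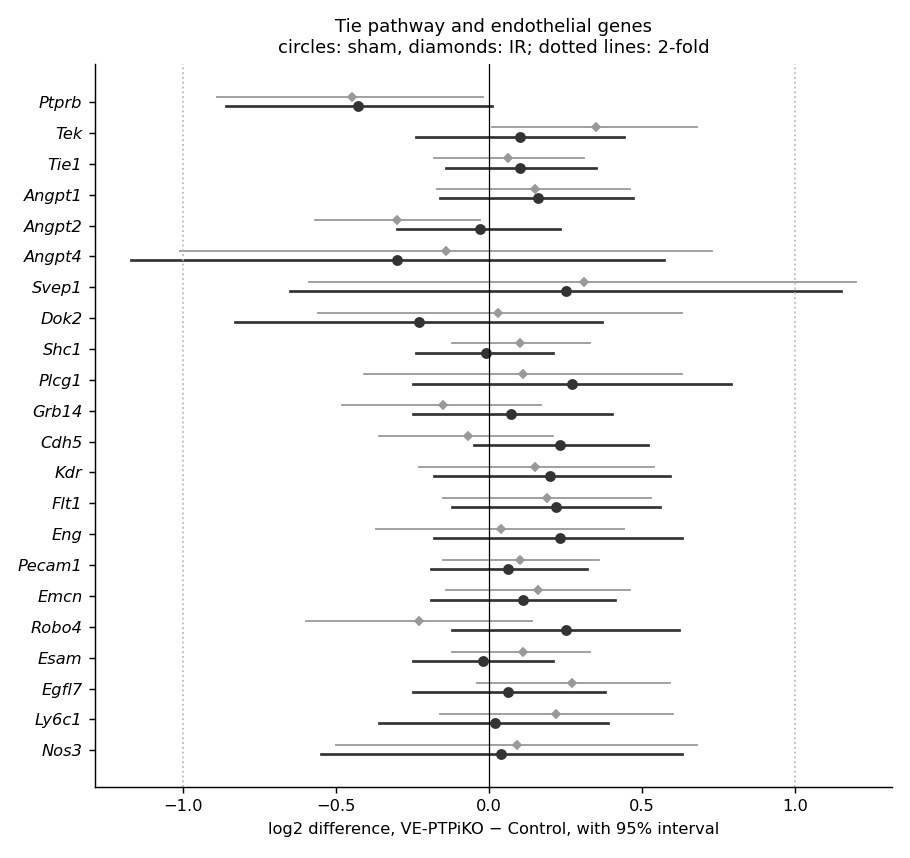
Fitted log2 difference of VE-PTPiKO from Control with its 95% interval for Tie pathway and endothelial genes; dark circles are sham, grey diamonds IR, and dotted lines mark a 2-fold difference in either direction. Ptprb lies at −0.43 in sham and −0.45 after IR, every sham interval includes 0, and those of Angpt4 and Svep1 cross a 2-fold line.

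FOXO targets were read as a list because AKT signalling from Tie2 restrains FOXO factors. Of 22 targets 0 passed and 0 were without overlap (4.9% of all genes tested), with 18 higher and 4 lower. Over all genes tested 8473 were higher and 7805 lower. The median log2 difference of the targets was 0.13, against quartiles of −0.11 and 0.14 over all genes. Their summed CPM overlapped, at 16000, 16000 and 15000 in Control and 14300, 18000 and 19500 in VE-PTPiKO. Members of a list share libraries, so their signs are not independent results. Irs2, an insulin receptor adaptor, stood at 128.33, 130.46 and 117.48 CPM in Control and 107.72, 237.16 and 201.04 CPM in VE-PTPiKO (0.45, interval −0.06 to 0.97; 0.81 without VE-PTPiKO sham replicate 1 and 0.24 without VE-PTPiKO sham replicate 2). VE-PTPiKO sham replicate 1 was the lowest of the 6 for Irs2 while replicates 2 and 3 were the highest. Sesn1, a stress-responsive inhibitor of mTORC1, stood at 44.11, 38.13 and 39.22 CPM against 45.03, 59.8 and 50.4 CPM (0.34, interval −0.05 to 0.72; 0.19 without both libraries rich in Malat1). Some genes of this list are best known from tubules: Pck1, an enzyme of gluconeogenesis in proximal tubule, was at 9298.8 CPM or more in all 6 libraries and differed by 0.06.

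Among adhesion molecules of activated endothelium, the selectins Selp and Sele were low in sham kidneys of both genotypes. Selp (P-selectin) was at 0.25, 0.3 and 0.17 CPM in Control and at 0, 0.05 and 0.11 CPM in VE-PTPiKO, which is a handful of reads per library. Its fitted difference of −1.53 (interval −2.81 to −0.26, unadjusted p = 0.0222) did not pass. Sele (E-selectin) was at 1.23, 2.02 and 1.67 CPM against 1.46, 1.39 and 1.26 CPM, with overlap. Icam1, the ligand of leukocyte integrins, differed by 0.10 (−0.05 without VE-PTPiKO sham replicate 1). Of 15 endothelial activation and leukocyte adhesion genes tested 0 passed, 6 were higher and 9 lower, with a median of −0.01. The summed level of this list was 431 to 497 CPM in the sham libraries. Of 15 shear-responsive and nitric oxide genes 10 were higher and 5 lower with a median of 0.06. Gucy1b1, a subunit of the nitric oxide receptor guanylate cyclase, was the 1 gene of these 15 whose groups did not overlap, against 4.9% of all genes tested (12.96, 11.31 and 11.32 CPM against 14.04, 15.9 and 16.65 CPM, unadjusted p = 0.0682).

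Endothelin and angiotensin genes held some of the smaller p-values among vascular genes, and 0 of 13 passed. At an unadjusted p under 0.05 by limma, 1 was higher and 2 were lower (all genes: 1.01% and 0.657%). Without overlap, 2 were higher and 2 lower (all genes: 2.49% and 2.4%). Edn1, the endothelin 1 precursor and a vasoconstrictor, stood at 2.9, 2.66 and 3.12 CPM in Control and 4.88, 4.44 and 3.9 CPM in VE-PTPiKO. The groups did not overlap, and the log2 difference was 0.59 (interval 0.10 to 1.08, unadjusted p = 0.0228, adjusted p = 1 by limma). Ednrb, the endothelin receptor of endothelium and collecting duct, stood at 99.14, 87.37 and 102.23 CPM against 118.8, 137.85 and 123.77 CPM (0.39, interval −0.05 to 0.83). After IR surgery Ednrb stood at 48.03, 71.34 and 100.78 CPM in Control and 115.14, 140.05 and 102.41 CPM in VE-PTPiKO (0.72, unadjusted p = 0.00363, adjusted p = 1 by limma). Its IR groups were narrowly apart in CPM but overlapped on the scale normalised by size factors. Mas1, the receptor for angiotensin-(1-7), stood at 2.22, 2.31 and 1.79 CPM against 1.5, 1.18 and 1.04 CPM in sham (−0.76, interval −1.21 to −0.30, unadjusted p = 0.00341). It was lower in every VE-PTPiKO library. Ren1 (renin) overlapped between the groups (−0.14, interval −0.47 to 0.18).

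The 3 fibrinogen chains, whose genes lie side by side on chromosome 3, had the highest fitted differences of the coagulation list. Fibrinogen is the clotting protein made of alpha, beta and gamma chains, best known as an acute-phase product of liver. The 250 bases upstream of each gene start are shown because the fitted values of all 3 genes were above 0.9 on the log2 scale. They are from RefSeq (GRCm38.p6), written 5′ to 3′ on the strand of the gene, with the matches searched for in capitals.
Fgg chr3:83007474-83007723 (+): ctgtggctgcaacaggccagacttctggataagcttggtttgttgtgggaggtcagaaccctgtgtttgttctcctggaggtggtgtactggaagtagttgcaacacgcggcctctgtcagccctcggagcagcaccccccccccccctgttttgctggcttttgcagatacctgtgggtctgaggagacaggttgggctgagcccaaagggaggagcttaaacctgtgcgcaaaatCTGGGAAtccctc
Fga chr3:83025903-83026152 (+): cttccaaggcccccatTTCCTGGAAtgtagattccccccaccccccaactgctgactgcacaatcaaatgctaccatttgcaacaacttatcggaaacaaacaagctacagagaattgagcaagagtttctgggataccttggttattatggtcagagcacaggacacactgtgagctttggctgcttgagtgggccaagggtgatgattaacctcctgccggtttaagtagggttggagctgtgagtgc
Fgb chr3:83049864-83050113 (−): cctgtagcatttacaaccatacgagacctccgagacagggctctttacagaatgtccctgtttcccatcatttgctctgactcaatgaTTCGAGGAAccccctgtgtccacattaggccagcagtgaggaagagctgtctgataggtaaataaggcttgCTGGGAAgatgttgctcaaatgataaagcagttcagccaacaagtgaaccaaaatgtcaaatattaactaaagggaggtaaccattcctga
The motifs searched on both strands were CTGGGAA, a form of the IL-6 response element of acute-phase genes, TTCNNNGAA, the core that STAT factors bind, and TATAAA, a core promoter element. CTGGGAA was found once each before Fgg and Fgb, TTCNNNGAA once each before Fga and Fgb, and TATAAA before none of the 3. Of 32851 RefSeq windows of the same length, 9.1% held CTGGGAA, 7.0% TTCNNNGAA and 12.4% TATAAA, so a match describes these letters and is not shown to be a site.

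Fgg (gamma chain) stood at 6.54, 4.58 and 12.07 CPM in Control and 27.94, 19.43 and 26.21 CPM in VE-PTPiKO sham. All 3 VE-PTPiKO libraries were higher than all 3 Control libraries, by 1.75 ± 0.32 on the log2 scale (SE; interval 1.06 to 2.43; unadjusted p = 9.52e-05, adjusted p = 1 by limma). DESeq2 called it, with a difference of 1.65 and an adjusted p of 0.004. Leaving out 1 library at a time gave 1.42 to 2.14. Fgb (beta chain) stood at 0.74, 0.54 and 3.58 CPM against 3.85, 3.05 and 3.41 CPM (1.52, interval 0.37 to 2.68, unadjusted p = 0.0134), and was 2.34 without Control sham replicate 3 and 1.01 without Control sham replicate 2. Fga (alpha chain) stood at 69.16, 93.81 and 194.36 CPM against 142.89, 209.75 and 290.95 CPM (0.92, interval 0.22 to 1.62, unadjusted p = 0.0142), with 0.60 without Control sham replicate 1. Control sham replicate 3 was the highest Control library for all 3 genes and overlapped VE-PTPiKO for Fga and Fgb. Among liver transcripts, Alb (albumin) stood at 6.72, 7.53 and 8.55 CPM in Control and 7.42, 7.92 and 10.88 CPM in VE-PTPiKO, Apoa1 was at or below 1.36 CPM and Ttr at or below 0.75 CPM in all 6 libraries. After IR surgery Fgg stood at 6.32, 5.26 and 4.24 CPM in Control and 8.83, 6.4 and 6.09 CPM in VE-PTPiKO (0.39), and the difference between the sham and IR contrasts did not pass (unadjusted p = 0.0097, adjusted p = 1 by limma). Of the 16 coagulation and fibrinolysis genes these 3 were the ones at an unadjusted p under 0.05, all higher, against 1.01% of all genes tested that were higher at this threshold, and the median of the list was 0.08. Procr, the endothelial protein C receptor, was at 2.22, 3.25 and 3.35 CPM against 3.76, 3.69 and 4.12 CPM (0.40, and 0.21 without Control sham replicate 1), and F3, tissue factor, differed by 0.07.

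Fgg led the 10 genes of largest higher value among those averaging 5 CPM or more, with no overlap and an unadjusted p under 0.05 (29 genes met these terms). The others are described as values that did not pass. Slc44a2, a choline transporter-like protein, stood at 62.87, 51.06 and 58.62 CPM in Control and 82.92, 102.09 and 96.84 CPM in VE-PTPiKO (0.70, interval 0.36 to 1.04, unadjusted p = 0.000679). The gap between the groups was wider than the range of the Control libraries. S1pr3, a receptor for sphingosine 1-phosphate in vessels, stood at 23.26, 25.33 and 13.92 CPM against 27.05, 41.22 and 26.65 CPM (0.61, interval 0.06 to 1.15). Loxl2, an enzyme that cross-links collagen, stood at 9.99, 10.97 and 6.87 CPM against 16.58, 13.01 and 12.15 CPM (0.58, interval 0.14 to 1.03). Control sham replicate 3 was the lowest library for S1pr3, Loxl2, Cacna2d1, Cpxm1 and Spsb1, and without it the difference was 0.35 for S1pr3, 0.43 for Cacna2d1 and 0.29 for Spsb1. Sox4, a developmental transcription factor, was at 0.56, but 54.6% of its length overlaps a predicted gene, so its reads are uncertain. The others were Pi15, a peptidase inhibitor, at 0.69, Cacna2d1, a calcium channel subunit, at 0.65, Cpxm1, a carboxypeptidase-like protein, at 0.63, Spsb1, an adaptor of ubiquitin ligases, at 0.56, and Poli, a translesion DNA polymerase, at 0.52.

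Of the 35 genes that met the same terms in the other direction, Nmrk1 had the largest fitted difference. Nmrk1, a kinase that turns nicotinamide riboside into an NAD precursor, stood at 30.23, 45.21 and 35.69 CPM in Control and 8.12, 8.62 and 26.05 CPM in VE-PTPiKO. VE-PTPiKO replicates 1 and 2 were far below replicate 3, which was close to the lowest Control library. The difference was −1.59 (interval −2.38 to −0.79, unadjusted p = 0.000849), and without VE-PTPiKO sham replicate 3 it was −2.16 with a limma adjusted p of 0.0109. After IR surgery the groups overlapped, with 73.36, 51.94 and 44.22 CPM in Control and 55.55, 52.12 and 62.81 CPM in VE-PTPiKO (0.01).

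Glb1, the lysosomal beta-galactosidase, stood at 147.94, 208.68 and 223.47 CPM in Control and 124.72, 125.22 and 130.91 CPM in VE-PTPiKO sham (−0.60, interval −0.94 to −0.25). The 3 VE-PTPiKO libraries were close to each other for Glb1 and the Control libraries spread. Akr1c18, a steroid dehydrogenase, stood at 84.77, 82.79 and 84.33 CPM against 81.75, 25.05 and 52.21 CPM (−0.83, interval −1.52 to −0.14), and was lower without overlap after IR too (−0.76). Its sham difference was −0.36 without VE-PTPiKO sham replicate 2 and −0.38 without both libraries rich in Malat1. In sham, VE-PTPiKO replicate 1 was close to Control for Akr1c18. Fst, follistatin, which binds activins, stood at 11.17, 18.4 and 16.81 CPM against 11.46, 6.91 and 9.34 CPM, groups that overlap by VE-PTPiKO replicate 1 on this scale and not on the scale normalised by size factors (−0.75, and −0.41 without both libraries rich in Malat1). The others were Ptgds, a prostaglandin D synthase, at −0.97 (−0.62 without VE-PTPiKO sham replicate 3), Mpped1, a metallophosphoesterase domain protein, at −0.75, Hspa8, the constitutive Hsp70 chaperone, at −0.71, Ppil1, a peptidyl-prolyl isomerase, at −0.68, and Slc14a2, the urea transporter of the inner medulla and thin limb, at −0.57.

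The IR libraries share no sample with the sham comparison and gave a second reading of these 19 genes. Of the 10 higher genes 6 had the same sign after IR, 0 were without overlap in the same direction and 0 had an unadjusted p under 0.05. Of the 9 lower genes 6 had the same sign, 1 (Akr1c18) was without overlap in the same direction and 2 had an unadjusted p under 0.05 by limma (Akr1c18 at −0.76 and Fst at −0.72). Over all genes tested 51.5% had the same sign in both contrasts, and in the IR libraries 9.08% were without overlap (3.94% higher, 5.14% lower) and 4.28% had an unadjusted p under 0.05. Limma called 0 genes between genotypes after IR and 0 for the difference between the 2 contrasts, where 2.67% had an unadjusted p under 0.05.

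**Figure D4:**
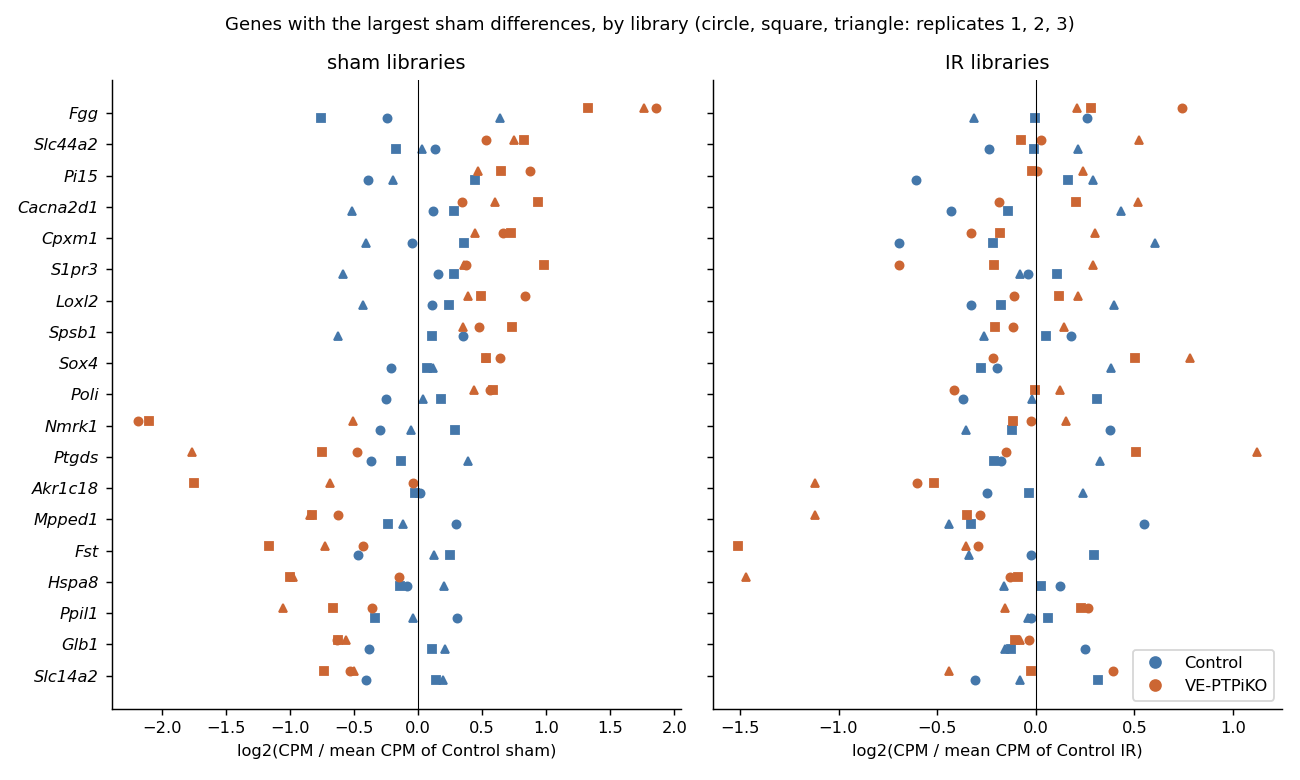
Each of the 19 genes of largest difference in sham kidneys, shown per library as log2 of its CPM over the mean CPM of the Control libraries, in sham (left) and after IR (right); blue is Control, orange VE-PTPiKO, and symbols are replicates 1, 2 and 3. The groups separate at left, where the genes were chosen (Fst by all but a narrow overlap), and mix at right for all but Akr1c18. Some separate at left by very little. The nearest libraries were at 17.58 CPM in Control and 17.59 CPM in VE-PTPiKO for Spsb1, and at 256.3 and 255.44 CPM for Hspa8.

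Stromal, immune and interferon genes are given next. All 20 mural, mesangial and fibroblast markers had a fitted value above 0, with a median of 0.27, and 0 passed. On the scale normalised by size factors Acta2 was the 1 gene of the 20 without overlap, against 2.49% of all genes tested that were higher without overlap. Col3a1, a fibrillar collagen, stood at 52.63, 85.2 and 42.11 CPM in Control and 158.48, 80.95 and 95.24 CPM in VE-PTPiKO (0.89, interval 0.08 to 1.69; 1.37 without both libraries rich in Malat1). Itga8, an integrin of mesangial cells, stood at 32.82, 39.8 and 23.8 CPM against 39.96, 49.79 and 39.51 CPM (0.43, unadjusted p = 0.0489; 0.25 without Control sham replicate 3). Acta2, smooth muscle actin, stood at 40.9, 49.59 and 43.32 CPM against 59.49, 52.09 and 46.99 CPM (0.23), groups that overlap in CPM. The summed level of the 20 genes was 732, 1020 and 651 CPM in Control and 1080, 1030 and 960 CPM in VE-PTPiKO, so Control sham replicate 2 lay among the VE-PTPiKO libraries. These genes are read as stromal markers from the same libraries, and their common sign is not a count of independent results.

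Interferon-stimulated genes were higher for 20 of 22, with a median of 0.20 and 0 passing. Oasl2, an antiviral gene, stood at 4.44, 4.48 and 4.1 CPM in Control and 4.98, 9.1 and 6.16 CPM in VE-PTPiKO (0.57, interval −0.11 to 1.26; 0.35 without VE-PTPiKO sham replicate 2). VE-PTPiKO sham replicate 2 had the highest sum of the list, 246 CPM, and the other 5 libraries lay between 169 and 200 CPM. MHC and antigen presentation genes were lower for 10 of 12 with a median of −0.13, among them H2-Aa, an MHC class II chain, at 65.71, 68.08 and 53.89 CPM against 56.86, 55.52 and 50.62 CPM. Of 17 monocyte and macrophage markers 0 passed, with a median of 0.01. Mrc1, the mannose receptor of resident macrophages, was the 1 marker of these without overlap, against 4.9% of all genes tested (7.77, 9.45 and 9.18 CPM against 11.93, 13.38 and 11.16 CPM, unadjusted p = 0.0363 by limma). Neutrophil markers summed to 9.15 to 17.9 CPM and lymphocyte markers to 4.5 to 12.3 CPM over the 6 libraries, with the genotypes overlapping in both. Cytokine, chemokine and NF-kB feedback genes had a median of 0.07 and immediate early genes of 0.06, and 0 of these 47 passed.

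Nephron genes had fitted differences centred near 0. Of 25 proximal tubule markers 0 passed, the median was −0.02 and all 25 intervals lay within 2-fold. Without overlap, 1 of these 25 was higher and 1 lower (all genes: 2.49% and 2.4%). The higher one was Slc22a8, the organic anion transporter OAT3 (372.02, 311.1 and 279.43 CPM against 398.94, 404.78 and 449.39 CPM, log2 difference 0.38, unadjusted p = 0.0279 by limma). Podocyte markers had a median of −0.04, collecting duct markers of −0.02 and distal and connecting tubule markers of 0.07, and loop of Henle markers were lower for 11 of 14 with a median of −0.11. None of these 62 genes passed limma. Of 21 tubular injury genes 0 passed, with a median of −0.01. Havcr1 (KIM-1), a marker of injured proximal tubule, was between 2.25 and 3.58 CPM in all 6 libraries (−0.30, interval −0.93 to 0.33; −0.16 without VE-PTPiKO sham replicate 2). Lcn2 (NGAL), a secreted injury marker, stood at 4.44, 4.82 and 7.22 CPM against 9.95, 6.37 and 8.79 CPM, with overlap (0.60, interval −0.22 to 1.42). Cdkn1a (p21), a cell cycle inhibitor, stood at 36.83, 39.36 and 46.38 CPM against 80.67, 43.69 and 64.91 CPM, with overlap (0.58, interval 0.10 to 1.05). Its difference was 0.39 without VE-PTPiKO sham replicate 1 and 0.84 without VE-PTPiKO sham replicate 2, and it did not pass the limma test.

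Lists of metabolism and translation had small medians with many members on 1 side. Oxidative phosphorylation genes were lower for 16 of 18 (median −0.13) and cytosolic ribosomal protein genes for 15 of 20 (median −0.10), with 0 passing in either list. Ribosomal protein sums were 1640 to 1660 CPM in Control sham replicate 2 and VE-PTPiKO sham replicates 2 and 3 and 2170 to 2230 CPM in the other 3, so the libraries rich in Malat1 were low for these genes in both genotypes, and the part of this axis in the medians was not tested. Androgen-responsive and sex-biased kidney genes were lower for 11 of 14 (median −0.24), among them Kap, an androgen-regulated protein of proximal tubule, at 24533.08, 21215.96 and 26578.49 CPM in Control and 21468.57, 16167.88 and 18901.06 CPM in VE-PTPiKO, with overlap. Heat shock genes had a median of −0.04, and Cryab, a small heat shock protein of the medulla, was at 106.86, 96.67 and 104.37 CPM against 94.8, 68.69 and 58.53 CPM (−0.51, unadjusted p = 0.0129). In the cholesterol synthesis list (median −0.04), 2 of 18 genes were lower without overlap in sham, against 2.4% of all genes tested. Sc5d, a sterol desaturase, was 1 of them (66.32, 58.15 and 45.34 CPM against 39.21, 39.78 and 36.38 CPM, log2 difference −0.55, unadjusted p = 0.00675 by limma) and had a difference of −0.48 after IR.

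**Figure D5:**
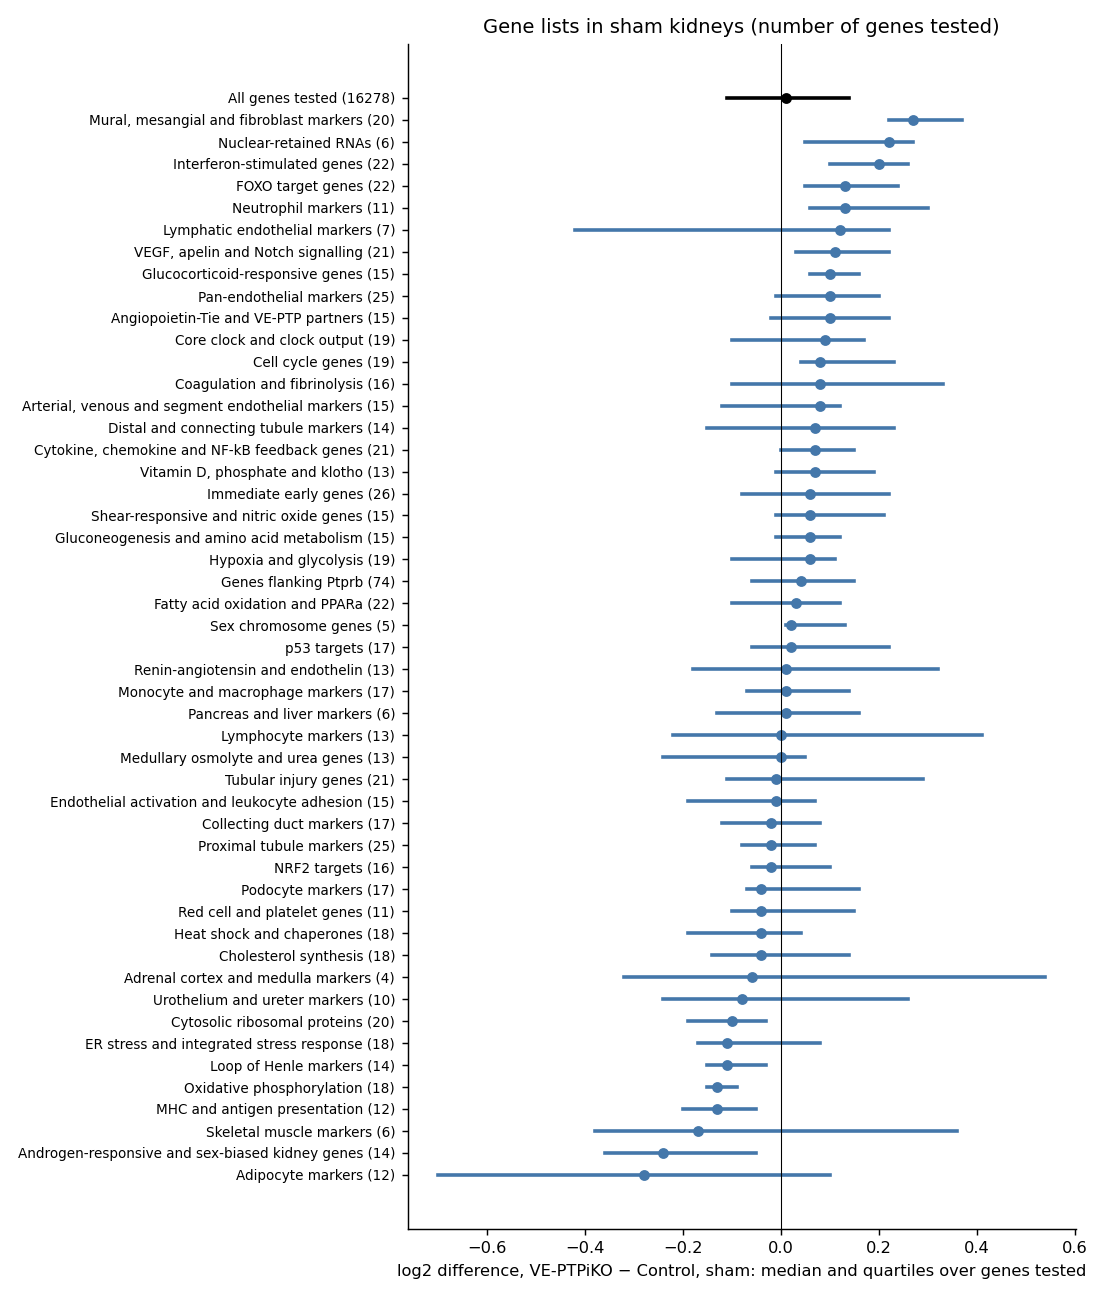
Median (point) and quartiles (line) of the fitted log2 difference of VE-PTPiKO from Control in sham kidneys for each gene list, with the number of genes tested in brackets; the black line is all 16278 genes. Medians run from −0.28 for adipocyte markers to 0.27 for mural, mesangial and fibroblast markers, and no gene of any list passed the limma test.

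Genes next to the targeted locus and transcripts of other tissues were read last. Of 104 genes within 10 Mb of Ptprb 74 were tested, 44 were higher and 30 lower with a median of 0.04, and 3 were without overlap in each direction (all genes: 2.49% higher, 2.4% lower). Those at an unadjusted p under 0.05 were E2f7, a repressor of cell cycle genes, below 1 CPM in all 6 libraries (1.08), and Ptprq, a phosphatase of the same family, also below 1 CPM (−0.93). Adrenal markers summed to 7.31 to 12.0 CPM, with Cyp11b1, Cyp11b2 and Pnmt at 0 reads in all libraries, and of the pancreas markers Cela2a, Cpa1, Prss2 and Pnlip were at 0 reads. Adipocyte markers summed to 86.3, 150 and 120 CPM in Control and 106, 128 and 127 CPM in VE-PTPiKO.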

How the data were processed

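Whole-kidney RNA was sequenced in 12 bulk libraries, of which the 6 sham libraries are compared here; the 2 single-cell samples were not analysed here. RNA was extracted with Trizol and libraries made with a TruSeq kit, per the labels' protocols. FastQC, STAR, HTSeq and DESeq2 and the build mm10 are named in the submitters' processing notes, with no versions. The deposited values are a normalised signal per gene, read counts divided by a size factor for each library, in a separate table per genotype, per the file headers and values. The authors' log2 fold changes, p-values and Wald score in the deposited tables compare IR with sham and were not used. No source used here says whether counting used strand, so values of genes that overlap others are uncertain.

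Reads were recovered from the deposited values (100% whole within 0.02), 16208769 to 21296392 per sham library, and put on 1 scale by median-of-ratios factors from 14828 genes. Each table had 23493 lines. For IDs listed more than once (182), which had the same values on each line, only the first line was kept. In all 23286 genes joined. Each gene averaging 1 or more over the sham libraries was tested with limma 3.58.1 (R 4.3.3) with a trend on log2(value + 1), with 1 mean per group over all 12 libraries and Benjamini-Hochberg adjustment, at a threshold of 0.05. Fold changes are on this log2(value + 1) scale, which understates those of low genes, and overlap between groups was judged on the rescaled values. The edgeR 4.0.16 and DESeq2 1.42.0 tests ran on the recovered reads as alternatives. The test was also run on simulated counts, with large changes placed only in well-expressed genes. Those libraries were drawn independently, so the simulation does not cover low genes, small differences or variation shared between libraries.

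Genes named are the 10 largest per direction averaging 5 CPM or more with no overlap and an unadjusted p under 0.05 (Gm, Rik and similar symbols left out; 1 lower gene is not reported here), the genes of the Tie pathway, and members of 48 lists: the 2 of smallest p, the 2 of highest level, and others chosen after their values were seen. Of 786 list entries 784 matched a symbol. The members and lists were chosen with earlier results of these data known. The alternatives were other normalisations, filters, pseudocounts, tests, library weights, a transcript length correction, fewer libraries and a replicate block.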

Additional observations from a re-analysis of the deposited data

How the results depend on the processing

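Over 23 alternatives limma called 0 genes in sham, except 1 without VE-PTPiKO sham replicate 3 (Nmrk1, −2.16, adjusted p = 0.0109), so leaving out 1 library at a time gave 0 to 1. DESeq2 called 1 gene over all genes and 1 over the lists, in both cases Fgg (1.65, adjusted p = 0.004). The cause of these changes was not tested. The log2 difference of Ptprb ran from −0.54 to −0.26 with a smallest adjusted p of 0.679. The count at an unadjusted p under 0.05 (272) ran from 32 with a 1.5-fold minimum to 1031 with library weights. Deviations of same-numbered libraries correlated at 0.20, 0.29 and 0.09, and those of differently numbered ones at −0.32 to 0.14. Each VE-PTPiKO library correlated best with the Control of its own number. Read from the Control side, replicates 1 and 2 did so too, but Control 3 correlated best with VE-PTPiKO 1 (0.14). These low values do not settle whether libraries of the same number belong together. With the replicate number as a block 0 genes were called, and Ptprb was −0.43 (−0.53 with the length correction as well).

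Of 82 genes followed, 8 changed sign under some alternative and none of the 19 largest did, and the cause was not tested. Leaving out 1 library at a time gave −0.09 to 0.07 for Angpt2, −0.21 to 0.17 for Nos3, −0.18 to 0.79 for Malat1, −0.05 to 0.22 for Icam1, −0.05 to 0.14 for Pecam1, −0.07 to 0.75 for Svep1 and −0.02 to 0.30 for Alb. Txnip was −0.02 without both sham libraries rich in Malat1. Medians of the lists moved by more than their spread between replicates in 17 of 1078 cases. Depth limits low genes most: 73.3% of intervals over all genes lay within 2-fold, against 98.2% at 50 CPM or more.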

Other observations

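Some genes fell into widely separated levels among sham libraries of 1 group, which the genotype labels do not follow in sham. They were picked after the spread within groups was ranked, and are given as values. Against a median SD of 0.18 on the log2 scale over 10305 genes, the SD within sham groups was 1.66 for Angptl7, an angiopoietin-like secreted protein. Angptl7 was at 356.91, 36.31 and 51.64 CPM in the Control sham libraries and at 273.99, 262.75 and 39.79 CPM in the VE-PTPiKO ones, and the IR libraries also lay either at 252.51 CPM and above or at 43.95 CPM and below. Fam213b, a prostamide synthase on the same chromosome 4, stood at 45.47, 6.69 and 7.39 CPM and 65.36, 35.17 and 6.27 CPM in the same sham libraries, high where Angptl7 was high. In Control IR replicate 1 Fam213b was high at 43.76 CPM while Angptl7 was low at 38.79 CPM. In the remaining IR libraries both genes were high or low together. Mfsd4b5, a gene of the major facilitator transporter superfamily, was at 5.89 CPM in Control sham replicate 3 and at 79.5 CPM or more in the other 5 sham libraries. In the IR libraries Mfsd4b5 was at 98.25 CPM or more in Control and at 5.7 to 7.35 CPM in VE-PTPiKO, and the difference between the sham and IR contrasts had an unadjusted p of 0.00016 by limma (adjusted p = 1).

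Other genes were near 0 in 1 or 2 libraries and well expressed in the rest. The ribosomal protein gene Rps2 and the proton pump subunit Atp6v0c, both on chromosome 17, were at 1.21 and 1.15 CPM in VE-PTPiKO sham replicate 3 and at 1.58 and 1.93 CPM in Control IR replicate 1, against at least 30.21 and 20.88 CPM in every other library. Ugt1a10 and Ugt1a9, glucuronosyltransferases that share exons, were at 0.86 and 0.16 CPM in VE-PTPiKO sham replicate 2, against at least 39.78 and 12.52 CPM elsewhere. Hmox1, the heme oxygenase of the NRF2 response, was at 1066.21 CPM in Control sham replicate 3, which was also the highest Control sham library for the 3 fibrinogen genes, against 99.91 to 529.02 CPM in the other sham libraries.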
